A study of Homo sapiens with 24 samples.

Results

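The genes described here were 10 markers of late urothelial differentiation, read across the whole experiment: the uroplakins UPK1A, UPK1B, UPK2, UPK3A and UPK3B, the keratins KRT20, KRT4 and KRT13, the surface protein gene PSCA and the sorting nexin gene SNX31. They were taken by symbol from a raw count table of 58721 genes. The experiment used 2 bladder cancer cell lines, RT112, of the luminal papillary (LumP) subtype, and SCaBER, of the basal/squamous (Ba/Sq) subtype. Each line received 6 siRNA treatments by lipid transfection: siControl (control number 2), siZBED2-1 and siZBED2-2 (2 siRNAs against the transcription factor gene ZBED2), siFOXA1 (1 siRNA against the pioneer factor gene FOXA1), and siFOXA1 together with either ZBED2 siRNA, siFOXA1+siZBED2-1 and siFOXA1+siZBED2-2. Each of the 12 groups had 2 libraries, 24 in all, made by 3′ RNA-seq, in which reads come from transcript ends. Each subtype was thus represented by 1 cultured line, all depletions were short term, and RT112 was grown in RPMI and SCaBER in DMEM, so that line and medium cannot be told apart.

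Uroplakins are the membrane proteins of the rigid plaques that cover the apical face of umbrella cells, the outermost cells of the bladder lining. They leave the endoplasmic reticulum as pairs: the tetraspanin UPK1A joins UPK2, and the tetraspanin UPK1B joins UPK3A or its relative UPK3B. KRT20 marks umbrella cells in normal urothelium, KRT13 marks the intermediate layer and pairs as a type I keratin with the type II keratin KRT4, PSCA is a glycolipid-anchored surface protein, and SNX31 binds uroplakins on endosomes. The comparisons ask how these markers respond when FOXA1, a factor of the luminal programme, or ZBED2, a factor tied to basal identity, is depleted in a luminal and in a basal line.

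Libraries held 4425404 to 6119210 counts. Levels are given as CPM, the count of a gene per 1000000 counts of its library, with library sizes scaled by the trimmed mean of M values (TMM), replicate 1 first. A count floor of 3 corresponded to 0.49 to 0.678 CPM before scaling, so lower values were not resolved, and such floors cover counting error only. Differences are log2 fold changes from edgeR's quasi-likelihood test. Their standard error (SE) was derived from that test, as the absolute log2 fold change divided by the square root of the F statistic. A gene was called when its p-value, adjusted by Benjamini-Hochberg over all genes tested in that fit, was below 0.05. The labels do not say that the 2 libraries of a group came from separate cultures beyond giving each an experiment batch number, so p-values measure the spread between these libraries. FOXA1 mRNA was 42.2 and 41.3 CPM in the RT112 siControl libraries and 4.04 to 15.6 CPM in the 6 RT112 libraries that received its siRNA. ZBED2 mRNA in RT112 fell from 22.2 and 16.9 CPM to 2.38 and 0 with siZBED2-1 (adjusted p = 0.00624). With siZBED2-2 it was 7.33 and 6.25 CPM, below both siControl libraries but not called (log2 fold change -1.52, SE 0.8, adjusted p = 0.903). Results with siZBED2-2 are therefore given by the siRNA received. ZBED2 was also low, 5.43 and 1.51 CPM, with siFOXA1 alone, and this fall from siControl was called (log2 fold change -2.48, SE 0.84, adjusted p = 0.0325). In SCaBER, too, the fall of a target was not always called. ZBED2 was 19.1 and 19.2 CPM with siControl, 2.4 and 7.34 with siZBED2-1 (adjusted p = 0.00848) and 8.86 and 16 with siZBED2-2 (adjusted p = 0.844). FOXA1, already low at 20 and 28 counts with siControl, had 4 and 6 counts with siFOXA1 (log2 fold change -2.09, SE 1.23, adjusted p = 0.272), so that SCaBER results are given for the libraries by the siRNA they received.

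The umbrella-cell programme was nearly silent in SCaBER and partly present in RT112. In RT112, UPK1A, UPK1B, UPK2, UPK3B, KRT4, KRT13 and PSCA had counts above 3 in 12 of 12 libraries, whereas KRT20 totalled 9 counts and UPK3A 18 counts over all 12. The transcripts of the defining umbrella-cell keratin and of the usual partner of UPK1B were thus at the limit of detection in the luminal line, although UPK1B itself reached 690 to 1588 CPM. All 9 KRT20 counts lay in 2 libraries, 1 of siZBED2-1 and 1 of siFOXA1+siZBED2-1, and 16 of the 18 UPK3A counts lay in the second siFOXA1+siZBED2-1 library. SNX31 had 84 counts in all, at most 24 in a library, with none in 4 of the 12 libraries. These 3 genes are described by their counts only.

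In SCaBER, UPK1A, UPK3A, KRT20 and SNX31 had no count in any of the 12 libraries. KRT4 had 3 counts, UPK1B 23, UPK3B 27 and PSCA 51 over the 12 libraries, against 37019, 65266, 1591 and 4274 in RT112. KRT13 and UPK2 were the members that every SCaBER library contained, with 528 and 249 counts in total. Per 100 RT112 counts, SCaBER had 0.0081 counts of KRT4, 0.0352 of UPK1B, 0.273 of KRT13, 1.19 of PSCA, 1.7 of UPK3B and 3.09 of UPK2. These shares pool all treatments of a line, and UPK2 was the uroplakin with the most counts in SCaBER.

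Between the siControl libraries of both lines, 7 of the 8 members that entered a joint fit of the 24 libraries were called higher in RT112, beside 16.4% of the 14823 genes tested. Nothing is read from this count, since UPK1A, UPK1B, UPK3B, KRT4 and SNX31 did not pass the filter on low counts in SCaBER and entered the fit through RT112, where they are high. KRT13 was 4764 and 4965 CPM in RT112 and 12.1 and 15.8 CPM in SCaBER, a log2 difference of 8.46 (SE 0.29, adjusted p = 1.97e-21). UPK1B was 1080 and 1025 CPM against 0 and 1.6 CPM, the latter 0 and 8 counts. UPK2 was 108 and 96.7 CPM against 2.46 and 4.59 CPM (log2 difference 4.87, SE 0.28, adjusted p = 7.63e-16), and PSCA was 89.9 and 91 CPM against 3.59 and 3.39 CPM (log2 difference 4.7, SE 0.36, adjusted p = 3.25e-12). For the other 3 called genes SCaBER siControl lay at or under the floor of 3 counts per library, which makes their folds lower bounds. KRT4 was at least 845-fold, UPK3B at least 44.9-fold and UPK1A at least 30.4-fold lower in SCaBER. SNX31, the eighth, was not called. No SCaBER value of these 7 genes reached the lowest RT112 value of the same gene. Nothing is read from this either, since UPK1A, UPK1B, UPK3B and KRT4 entered through RT112 and the share of all genes so separated is not given. Over all groups, 9773 of the 14823 genes were called between the lines in either direction.

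**Figure D1:**
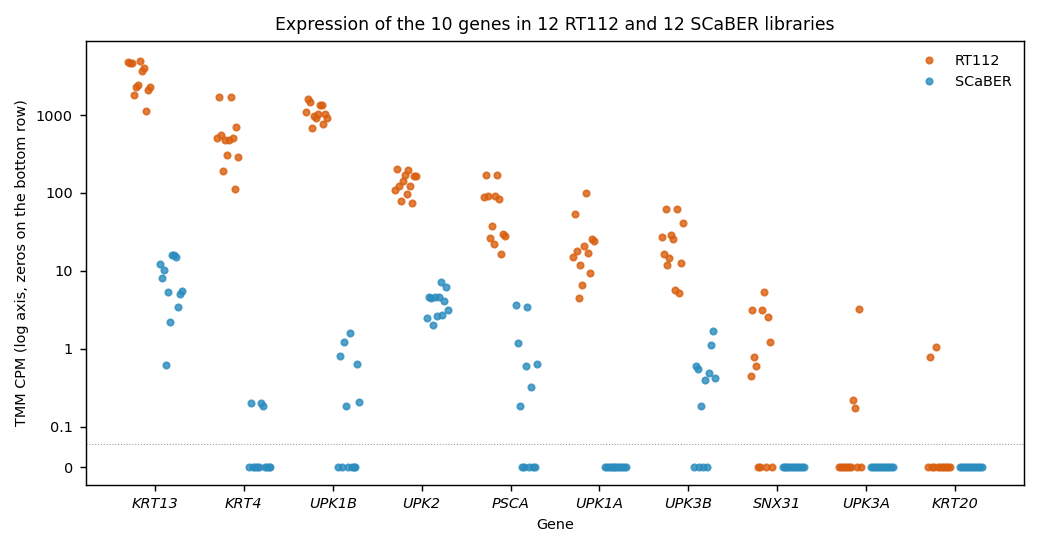
TMM CPM (log axis, zeros drawn on the bottom row) of the 10 genes in the 12 RT112 libraries (orange) and the 12 SCaBER libraries (blue), 1 point per library. The 7 genes on the left are present in all 12 RT112 libraries and lie lower in every SCaBER library, while UPK3A and KRT20 are at 0 in most libraries of RT112 and in all of SCaBER.

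Promoter sequences are shown for members by availability and not by how they responded. RefSeq sequences (GRCh38.p14) were at hand for 5 of the 10 members, and the 250 bases before the start are given for the 4 of them that were measured, 5′ to 3′ on the strand of the gene, with capitals marking the TATA letters TATAA or TATATA on that strand.
KRT4 (chr12:52814117-52814366, minus strand): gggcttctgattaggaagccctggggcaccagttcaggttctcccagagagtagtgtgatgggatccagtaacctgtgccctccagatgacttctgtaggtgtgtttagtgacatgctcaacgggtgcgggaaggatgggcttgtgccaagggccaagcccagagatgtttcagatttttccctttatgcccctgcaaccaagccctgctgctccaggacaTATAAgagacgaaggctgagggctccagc
UPK1A (chr19:35666267-35666516, plus strand): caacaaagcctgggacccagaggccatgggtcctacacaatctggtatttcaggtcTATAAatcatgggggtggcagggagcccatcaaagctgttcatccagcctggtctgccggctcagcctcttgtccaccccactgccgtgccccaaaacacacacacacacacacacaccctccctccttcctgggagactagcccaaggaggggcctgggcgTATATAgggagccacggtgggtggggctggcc
UPK1B (chr3:119173348-119173597, plus strand): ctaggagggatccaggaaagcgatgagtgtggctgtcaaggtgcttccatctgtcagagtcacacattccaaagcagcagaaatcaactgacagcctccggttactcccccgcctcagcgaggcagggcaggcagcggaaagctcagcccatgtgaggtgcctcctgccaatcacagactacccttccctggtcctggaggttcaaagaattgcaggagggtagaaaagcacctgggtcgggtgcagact
UPK3B (chr7:76510302-76510551, plus strand): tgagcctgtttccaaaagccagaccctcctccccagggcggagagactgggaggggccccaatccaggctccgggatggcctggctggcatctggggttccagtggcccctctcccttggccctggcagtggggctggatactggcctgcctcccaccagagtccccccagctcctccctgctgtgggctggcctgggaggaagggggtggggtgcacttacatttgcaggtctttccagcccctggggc
KRT4 had TATAA beginning 29 bases before its start, and UPK1A had TATATA beginning 32 bases before and a further TATAA 194 bases before. UPK1B and UPK3B had neither, and 15.1% of the 35116 promoters of this length held at least 1 such match. None of the 4 windows held, on either strand, the forkhead letters TGTTTAC or TGTTTGC (6.09% of all promoters), the GATA letters AGATAA or TGATAA (14.6%), the direct repeat bound by PPAR and RXR pairs (0.0171%) or the core repeat of interferon regulatory factors (3.02%). These are matches of letters in a short window and say nothing of binding, in the window or elsewhere.

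The FOXA1 siRNA lowered most measurable members in RT112. Against siControl, 6 of the 8 members tested were called lower with siFOXA1 and 0 higher, where 11.9% of the 13264 genes tested were called lower and 23.3% were called in either direction. The median log2 fold change of the 8 was -1.49, beside -0.01 for all genes. KRT20 and UPK3A had too few counts to be tested. In bulk libraries such as these, fewer cells that express a gene and less of its RNA per cell cannot be told apart. The share of mitochondrial counts also separated the libraries: it was 8.22 to 17.78% in the 6 RT112 libraries without the FOXA1 siRNA and 18.57 to 22.73% in the 6 with it, and its part in these results was not tested.

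The keratin pair of the intermediate layer fell together. KRT13 (chromosome 17, 41500981 to 41505612) was 4764 and 4965 CPM with siControl and 1816 and 1122 CPM with siFOXA1. KRT4 (chromosome 12, 52806549 to 52814116) went from 513 and 473 CPM to 190 and 112 CPM. Both siFOXA1 libraries lay below both siControl libraries for each gene, with log2 fold changes of -1.73 for KRT13 (SE 0.16, adjusted p = 1.57e-08) and -1.71 for KRT4 (SE 0.18, adjusted p = 1.79e-07). PSCA (chromosome 8, 142670297 to 142682725) had the largest fall, from 89.9 and 91 CPM to 26.6 and 16.6 CPM, a change of -2.06 on the log2 scale (SE 0.22, adjusted p = 2.83e-07).

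The uroplakins fell by unequal amounts. UPK1B (chromosome 3, 119173598 to 119205143) was 1080 and 1025 CPM with siControl and 690 and 757 CPM with siFOXA1, a change of -0.54 on the log2 scale (SE 0.12, adjusted p = 0.0014). UPK3B (chromosome 7, 76510552 to 76516522) went from 27 and 25.3 CPM to 11.9 and 5.16 CPM (-1.61, SE 0.4, adjusted p = 0.00404), and UPK1A (chromosome 19, 35666517 to 35678481) from 14.9 and 20.6 CPM to 4.43 and 9.46 CPM (-1.36, SE 0.48, adjusted p = 0.0425). Their groups did not overlap, but both rest on few counts. UPK3B was no longer called without the second siFOXA1 library (-1.14, adjusted p = 0.0956), and UPK1A was not called without the first siControl library (-1.57, adjusted p = 0.0601), the second siControl library (-1.11, adjusted p = 0.237) or the first siFOXA1 library (-0.9, adjusted p = 0.281). UPK1A overlaps the antisense gene UPK1A-AS1, which had 6 counts in RT112, and the UPK3B-like gene UPK3BL1 had none. How reads shared with such neighbours were assigned was not tested.

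UPK2 (chromosome 11, 118956298 to 118958559), the partner of UPK1A, was near the threshold. Its levels were 108 and 96.7 CPM with siControl and 79.3 and 74.2 CPM with siFOXA1, again without overlap, and its log2 fold change of -0.41 (SE 0.16) had an adjusted p of 0.0581. With the replicate number as a block the adjusted p was 0.0468, which raised the members called lower from 6 to 7. On the deposited TPM scale, where the median gene itself shifted by -0.26, limma gave UPK2 a log2 fold change of -0.71 with an adjusted p of 0.0251.

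The FOXA1 siRNA had 2 further backgrounds in RT112, the ZBED2 siRNAs. Over the 3 groups with against the 3 groups without it, 6 libraries against 6, 6 of the 8 members were again called lower and none higher, where 17.0% of all genes were called lower. PSCA ranged from 84.6 to 172 CPM (median 91) without and from 16.6 to 37.6 CPM (median 27.4) with the FOXA1 siRNA, and KRT13 from 3725 to 4965 CPM (median 4660) and from 1122 to 2433 CPM (median 2185). For these 2 members the 6 libraries with the FOXA1 siRNA did not overlap the 6 without it. The log2 differences were -2.07 for PSCA (SE 0.13, adjusted p = 3.8e-12) and -1.18 for KRT13 (SE 0.09, adjusted p = 1.62e-10). KRT4 fell by 1.37 on the log2 scale (SE 0.1, adjusted p = 1.32e-10), UPK1A by 1.2 (SE 0.26, adjusted p = 0.000879) and UPK1B by 0.57 (SE 0.07, adjusted p = 3.49e-07), with libraries that overlapped. UPK3B fell by 0.72 (SE 0.22, adjusted p = 0.0134), which was not called without the first siZBED2-1 library (-0.4, adjusted p = 0.191) or the second siFOXA1 library (-0.56, adjusted p = 0.0543). UPK2 did not follow, with 96.7 to 202 CPM without and 74.2 to 171 CPM with the siRNA, a log2 difference of -0.11 (SE 0.09, adjusted p = 0.373).

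**Figure D2:**
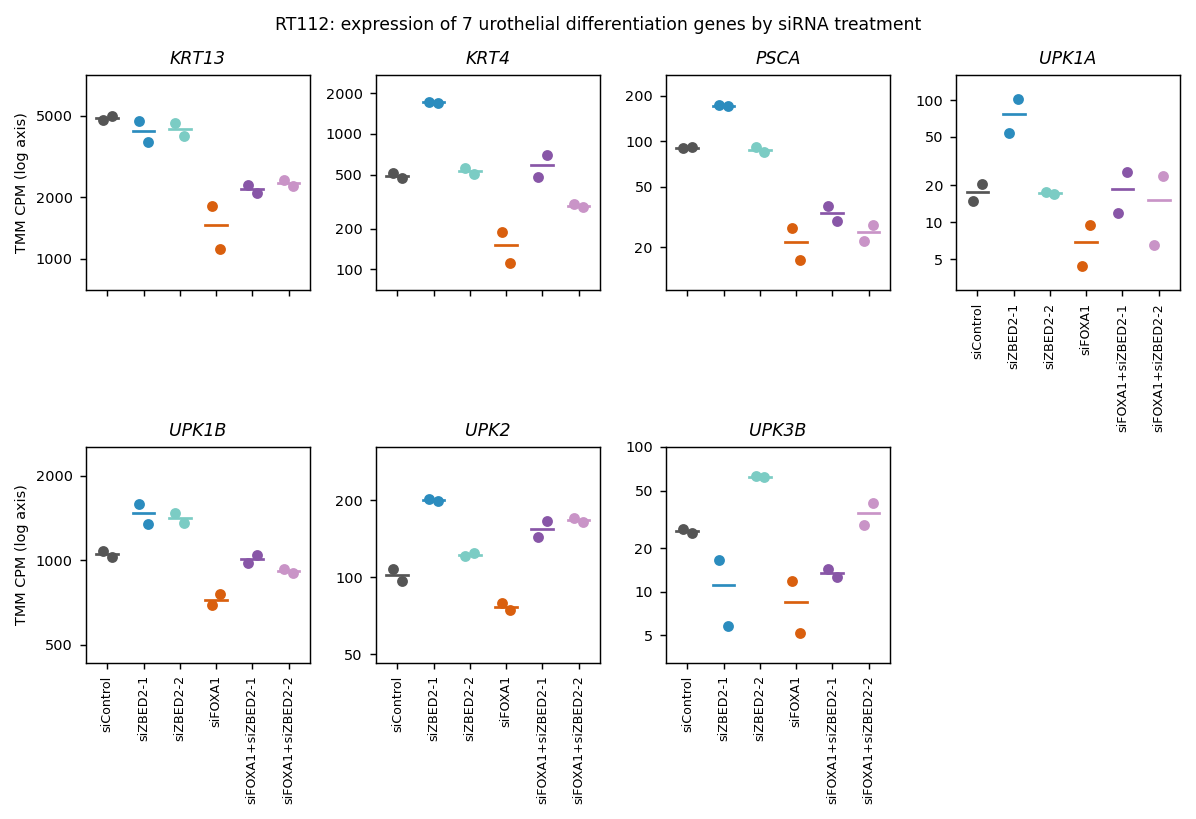
TMM CPM (log axis) of 7 genes in the 12 RT112 libraries by siRNA treatment, with 1 point per library and a bar at each group mean (n = 2). The siFOXA1 libraries are the lowest group mean for every gene shown, siZBED2-1 has the highest group mean of KRT4, PSCA, UPK1A, UPK1B and UPK2, and UPK3B is highest with siZBED2-2.

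The first ZBED2 siRNA raised 5 members in RT112 and lowered 1. With siZBED2-1, UPK1A, UPK1B, UPK2, KRT4 and PSCA were called higher than with siControl, where 4.35% of all genes were called higher, and UPK3B was called lower, as were 4.45% of all genes. KRT4 rose from 513 and 473 CPM to 1717 and 1702 CPM, a change of 1.79 on the log2 scale (SE 0.18, adjusted p = 1.69e-07). UPK2 rose from 108 and 96.7 CPM to 202 and 198 CPM (0.97, SE 0.16, adjusted p = 0.000129). Both pairs of libraries lay close together, well apart from siControl.

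UPK1A, which pairs with UPK2, was 14.9 and 20.6 CPM with siControl and 54.1 and 101 CPM with siZBED2-1. Its log2 fold change of 2.12 (SE 0.44, adjusted p = 0.00245) was no longer called without the first siControl library (1.92, adjusted p = 0.0556) or the second siZBED2-1 library (1.6, adjusted p = 0.115). PSCA rose from 89.9 and 91 CPM to 172 and 171 CPM (0.92, SE 0.21, adjusted p = 0.0043), and lost the call without the first (0.91, adjusted p = 0.0517) or second (0.92, adjusted p = 0.0582) siControl library at nearly the same fold. UPK1B rose from 1080 and 1025 CPM to 1588 and 1350 CPM (0.48, SE 0.12, adjusted p = 0.00912), which fell short without the second siControl library (0.43, adjusted p = 0.13) or the first siZBED2-1 library (0.36, adjusted p = 0.153). KRT13 did not rise with its partner keratin: it was 4764 and 4965 CPM with siControl and 4699 and 3725 CPM with siZBED2-1, a log2 fold change of -0.21 that was not called.

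UPK3B moved the other way. It was 27 and 25.3 CPM with siControl and 16.5 and 5.75 CPM with siZBED2-1, a change of -1.22 on the log2 scale (SE 0.39, adjusted p = 0.0479) that depended on single libraries: it was not called without the first siControl (-1.18, adjusted p = 0.177), the second siControl (-1.28, adjusted p = 0.142) or the second siZBED2-1 library (-0.67, adjusted p = 0.485). DESeq2 gave it an adjusted p of 0.0561.

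With the second ZBED2 siRNA no member was called by edgeR, as 0.166% of all genes were. UPK1B and UPK3B had an unadjusted p under 0.05, a threshold for which the share of all genes is not given. DESeq2 called 1 member, UPK1B (log2 fold change 0.43, adjusted p = 0.0031). UPK1B was 1472 and 1357 CPM, above both siControl libraries, with the same log2 fold change and an adjusted p of 0.246 in edgeR. UPK3B was 62.7 and 61.9 CPM against 27 and 25.3 CPM with siControl, a change of 1.25 on the log2 scale (SE 0.36, adjusted p = 0.306) that was called only when the filter on low counts was left out (adjusted p = 0.0457). KRT4, at 558 and 511 CPM, and UPK2, at 121 and 124 CPM, had log2 fold changes of 0.12 (SE 0.17) and 0.26 (SE 0.16).

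Taken as a mean, the 2 ZBED2 siRNAs left 3 members called higher, beside 1.33% of all genes: KRT4 (0.96, adjusted p = 0.000661), UPK2 (0.61, adjusted p = 0.0131) and UPK1B (0.45, adjusted p = 0.0155). These calls depended on single libraries. Without the second siControl library none of the 3 passed (KRT4 0.89, adjusted p = 0.0561; UPK2 0.53, adjusted p = 0.306; UPK1B 0.41, adjusted p = 0.303), without the first UPK2 (0.69, adjusted p = 0.0845) and UPK1B (0.49, adjusted p = 0.125) did not, and without the first siZBED2-1 library UPK1B did not (0.39, adjusted p = 0.0718). With the replicate number as a block, UPK1A was also called (1.06, adjusted p = 0.0391).

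The 2 ZBED2 siRNAs were then compared directly, a comparison added after the values were seen, by setting the 4 RT112 libraries with siZBED2-1, alone or with siFOXA1, against the 4 with siZBED2-2. UPK3B was lower with siZBED2-1 by 1.92 on the log2 scale (SE 0.27, adjusted p = 2.52e-05), where 5.56% of all genes were called lower. Its 4 libraries with siZBED2-1 lay at 5.75 to 16.5 CPM and its 4 with siZBED2-2 at 29 to 62.7 CPM, without overlap. The further members KRT4, UPK1A and PSCA, were called higher with siZBED2-1, beside 5.04% of all genes. The log2 differences were 1.33 for KRT4 (SE 0.12, adjusted p = 5.47e-08), 0.69 for PSCA (SE 0.15, adjusted p = 0.00328) and 1.23 for UPK1A (SE 0.32, adjusted p = 0.0111). UPK1A lost this call without the second siZBED2-1 library (0.97, adjusted p = 0.121), the second siFOXA1+siZBED2-1 library (0.9, adjusted p = 0.115) or the first siFOXA1+siZBED2-2 library (0.91, adjusted p = 0.0624). UPK2 differed by 0.3 (SE 0.11, adjusted p = 0.0823). UPK3B was thus ordered oppositely to KRT4, PSCA and UPK1A by the 2 siRNAs against 1 gene.

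**Figure D3:**
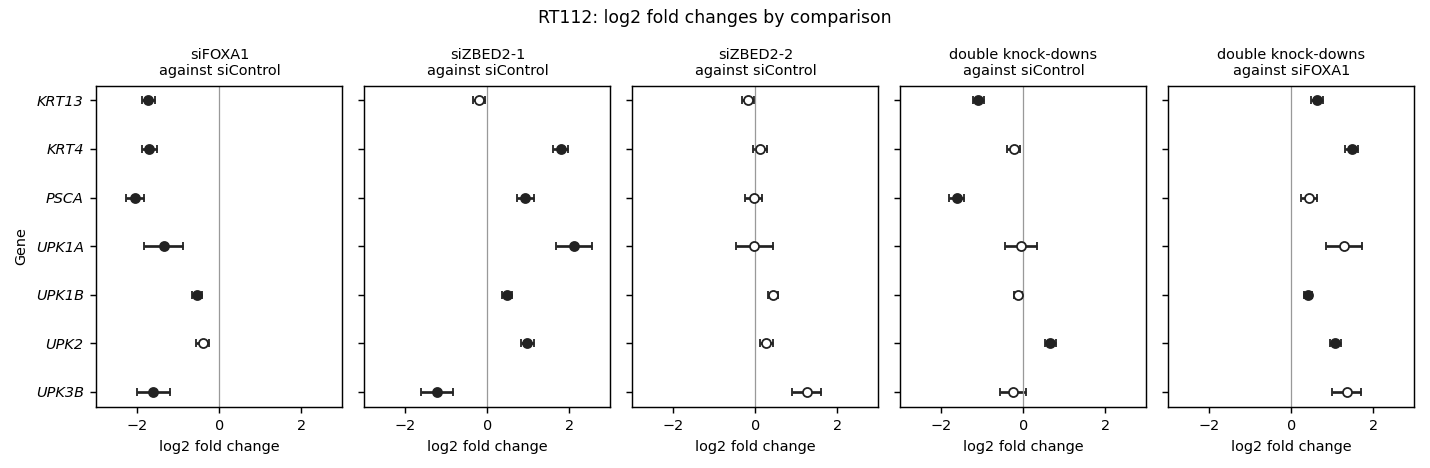
Log2 fold changes (points) with standard errors (bars) of 7 genes in 5 RT112 comparisons, each fitted with all 12 RT112 libraries. Filled points passed the threshold on the adjusted p-value and open points did not, and UPK3B lies below 0 with siZBED2-1 and above 0 with siZBED2-2.

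When FOXA1 and ZBED2 siRNAs were given together, several members lay between siFOXA1 and siControl. With both double knock-downs averaged and set against siControl, PSCA (-1.63, SE 0.18, adjusted p = 2.82e-07) and KRT13 (-1.1, SE 0.13, adjusted p = 6.31e-07) were lower, beside 10.3% of all genes called lower, and UPK2 was higher (0.66, SE 0.14, adjusted p = 0.00095), beside 9.62% called higher. KRT4 (-0.24, SE 0.15), UPK1B (-0.13, SE 0.1) and UPK3B (-0.26, SE 0.32) were not called. UPK2 was 143 and 166 CPM with siFOXA1+siZBED2-1 and 171 and 165 CPM with siFOXA1+siZBED2-2, so that all 4 double knock-down libraries lay above both siControl libraries, whereas both siFOXA1 libraries lay below them.

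Against siFOXA1 alone, 4 members were called higher in the double knock-downs and 0 lower, where 1.32% of all genes were called higher. ZBED2 itself, already low with siFOXA1, was 1.91 and 1.42 CPM with siFOXA1+siZBED2-1 and 2.63 and 0.843 CPM with siFOXA1+siZBED2-2. A further fall from siFOXA1 was not called (-1.03, SE 0.75, adjusted p = 0.573), so these differences are those of adding a ZBED2 siRNA. KRT4 was 190 and 112 CPM with siFOXA1, 481 and 695 CPM with siFOXA1+siZBED2-1 and 304 and 288 CPM with siFOXA1+siZBED2-2, a mean log2 fold change of 1.47 (SE 0.16, adjusted p = 2.15e-05). UPK2 was higher by 1.07 (SE 0.14, adjusted p = 0.000138). KRT4, UPK2, KRT13, UPK1B and UPK3B were higher in each double knock-down library than in either library of siFOXA1 alone, whereas UPK1A and PSCA overlapped. The share of all genes so separated is not given. KRT13 was 2283 and 2088 CPM with siFOXA1+siZBED2-1 and 2433 and 2282 CPM with siFOXA1+siZBED2-2, against 1816 and 1122 CPM, a change of 0.63 on the log2 scale (SE 0.14, adjusted p = 0.0146) that was not called without the second siFOXA1 library (0.32, adjusted p = 0.534).

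UPK1B was 977 and 1042 CPM and 928 and 903 CPM in the double knock-downs, against 690 and 757 CPM with siFOXA1 (0.41, SE 0.1, adjusted p = 0.0385). Its call was lost without either siFOXA1 library (0.34, adjusted p = 0.211, without the first and 0.48, adjusted p = 0.209, without the second), without the second siFOXA1+siZBED2-1 library (0.38, adjusted p = 0.109) and without either siFOXA1+siZBED2-2 library (0.4, adjusted p = 0.107, and 0.42, adjusted p = 0.0765). UPK3B (1.35, SE 0.36, adjusted p = 0.0501) and UPK1A (1.29, SE 0.44, adjusted p = 0.146) were not called, and with the replicate number as a block both were (adjusted p = 0.0139 and 0.0295), which made 6 members. Without the first siFOXA1 library UPK3B was called (2.07, adjusted p = 0.0218), as was UPK1A without the first siFOXA1+siZBED2-2 library (1.61, adjusted p = 0.039). PSCA stayed at 22.2 to 37.6 CPM in the 4 double knock-down libraries against 26.6 and 16.6 CPM with siFOXA1 (0.43, SE 0.2, adjusted p = 0.334).

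Each double knock-down was also set against siFOXA1 on its own, in comparisons added after the values were seen. Against siFOXA1, KRT4 was higher by 1.96 (SE 0.18, adjusted p = 6.52e-07) with siFOXA1+siZBED2-1 and by 0.97 (SE 0.18, adjusted p = 0.00672) with siFOXA1+siZBED2-2, the latter not called without the second siFOXA1 (0.64, adjusted p = 0.22) or first siFOXA1+siZBED2-2 library (0.93, adjusted p = 0.0535). UPK3B was 14.5 and 12.7 CPM with siFOXA1+siZBED2-1 (0.67, SE 0.41, adjusted p = 0.483) and 29 and 40.9 CPM with siFOXA1+siZBED2-2 (2.03, SE 0.4, adjusted p = 0.00929). The latter was not called without the second siFOXA1 library (1.55, adjusted p = 0.236) or the second siFOXA1+siZBED2-2 library (1.76, adjusted p = 0.107). UPK2 was higher by nearly the same amount with either, 1.01 (SE 0.16, adjusted p = 0.000471) and 1.13 (SE 0.16, adjusted p = 0.000304). With siFOXA1+siZBED2-1 4 members were called higher than with siFOXA1, beside 1.55% of all genes, and with siFOXA1+siZBED2-2 also 4, beside 0.897%.

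Seen from the ZBED2 backgrounds, in 2 comparisons likewise added after the values were seen, the FOXA1 siRNA lowered 5 members against siZBED2-1, where 5.41% of all genes were called lower, and 4 members against siZBED2-2, where 4.34% were. PSCA fell by 2.34 (SE 0.22, adjusted p = 7.47e-08) and by 1.8 (SE 0.22, adjusted p = 7.48e-06) on the log2 scale, KRT4 by 1.54 (SE 0.18, adjusted p = 1.79e-06) and by 0.85 (SE 0.18, adjusted p = 0.00235), and KRT13 by 0.95 (SE 0.15, adjusted p = 0.000182) and by 0.87 (SE 0.15, adjusted p = 0.000573). UPK1B fell by 0.54 (SE 0.12, adjusted p = 0.00343) and by 0.63 (SE 0.12, adjusted p = 0.00109). The first of these was not called without the first siZBED2-1 library (-0.42, adjusted p = 0.0796). UPK1A was the fifth gene, lower by 2.04 against siZBED2-1 (SE 0.44, adjusted p = 0.00331), a call lost without the second siZBED2-1 library (-1.52, adjusted p = 0.128) or the first siFOXA1+siZBED2-1 library (-1.6, adjusted p = 0.0668).

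The order of the group means in RT112 thus differed between members. For KRT4 it ran from siZBED2-1 over siFOXA1+siZBED2-1, siZBED2-2, siControl and siFOXA1+siZBED2-2 to siFOXA1, and siFOXA1+siZBED2-1, siZBED2-2 and siControl overlapped their neighbours. For UPK2 siZBED2-1 was followed by the double knock-downs, which overlapped each other, and then by siZBED2-2, siControl and siFOXA1 without overlap. For UPK3B siZBED2-2 was followed by siFOXA1+siZBED2-2, siControl and siFOXA1+siZBED2-1, and the last overlapped siZBED2-1, which overlapped siFOXA1.

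Whether the FOXA1 siRNA acted differently with and without a ZBED2 siRNA was tested as an interaction, the double knock-downs against siFOXA1 minus the ZBED2 siRNAs against siControl. Of the members, 1 was called, KRT13 (0.82, SE 0.19, adjusted p = 0.0361), where 0.611% of all genes were, and it was called neither by DESeq2 (0.81, adjusted p = 0.0672) nor by limma on TPM (0.91, adjusted p = 0.51). By edgeR its FOXA1 siRNA effect was smaller in the presence of a ZBED2 siRNA, with group means of 4864 and 1469 CPM without a ZBED2 siRNA, 4212 and 2186 CPM with siZBED2-1 and 4304 and 2358 CPM with siZBED2-2. The call did not hold without either siControl library (0.85, adjusted p = 0.117, without the first and 0.79, adjusted p = 0.208, without the second), nor without the second siZBED2-1 (0.74, adjusted p = 0.11), second siZBED2-2 (0.78, adjusted p = 0.0573), second siFOXA1 (0.51, adjusted p = 0.383), first siFOXA1+siZBED2-1 (0.78, adjusted p = 0.0654) or either siFOXA1+siZBED2-2 library (0.79, adjusted p = 0.0742, and 0.84, adjusted p = 0.0548).

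In SCaBER, 3 members had enough counts to be tested, KRT13, UPK2 and PSCA. KRT13 was 12.1 and 15.8 CPM with siControl and 0.612 and 3.4 CPM with siFOXA1, which were 3 and 15 counts. Both libraries lay below siControl, and the log2 fold change of -2.81 (SE 0.62, adjusted p = 0.00109) was called, where 9.12% of 13129 genes were called lower. In the double knock-downs KRT13 was 5.34 and 5.09 CPM and 2.22 and 5.45 CPM, a log2 fold change of -1.64 from siControl (SE 0.46, adjusted p = 0.0161), beside 5.79% of genes called lower. It was not called without the first siControl (-1.81, adjusted p = 0.054), the second siControl (-1.43, adjusted p = 0.179) or the first siFOXA1+siZBED2-2 library (-1.38, adjusted p = 0.0657). Over the 3 groups with against the 3 without the FOXA1 siRNA, KRT13 ranged from 0.612 to 5.45 CPM (median 4.25) and from 8 to 16 CPM (median 13.7), without overlap, a log2 difference of -1.91 (SE 0.34, adjusted p = 4.86e-05), and 12.0% of genes were called lower. KRT13 was thus lower with the FOXA1 siRNA in both lines. The log2 fold changes, -1.73 in RT112 and -2.81 in SCaBER, differed by 1.09 (SE 0.5, adjusted p = 0.288). In that test of the line difference 0 members were called by edgeR, where 2.58% of all genes were, and 1, PSCA, by DESeq2. PSCA and KRT13 had an unadjusted p under 0.05 in edgeR, a threshold for which the share of all genes is not given. The mitochondrial share did not separate the SCaBER libraries, at 9.55 to 11.98% without and 9.29 to 12.93% with the siRNA.

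With either ZBED2 siRNA alone, edgeR called 0 of the 3 members in SCaBER, where 4.65% of all genes were called for siZBED2-1 and 0.625% for siZBED2-2. None of the 3 had an unadjusted p under 0.05, and DESeq2 gave none of them an adjusted p in these comparisons.

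PSCA was near or under the floor of 3 counts in most SCaBER libraries other than siControl. The siControl libraries held 19 and 17 counts, the siZBED2-1 libraries 6 and 0, the siZBED2-2 libraries 1 and 2, the siFOXA1 and siFOXA1+siZBED2-1 libraries none, and the siFOXA1+siZBED2-2 libraries 3 each. At a floor of 3 counts per library PSCA was at least 5.4-fold lower with siFOXA1 and at least 5.87-fold lower with siFOXA1+siZBED2-1 than with siControl, but it was not called (adjusted p = 0.0511 for siFOXA1). The siZBED2-1 response of PSCA, a rise in RT112 and 6 and 0 counts against 19 and 17 in SCaBER, had an adjusted p of 0.522 within SCaBER (log2 fold change -2.52, SE 1.69) and differed between the lines by 3.45 on the log2 scale (SE 0.66, adjusted p = 0.00449) in a comparison added after the values were seen, where 0.459% of all genes were called in that direction. Without the second SCaBER siZBED2-1 library, the one with no PSCA count, the difference was 2.43 (adjusted p = 0.0826). UPK2 in SCaBER lay at 2.46 and 4.59 CPM with siControl, 4.6 and 7.16 with siZBED2-1, 4.43 and 2.72 with siZBED2-2, 2.04 and 4.08 with siFOXA1, 4.61 and 6.15 with siFOXA1+siZBED2-1 and 2.62 and 3.14 with siFOXA1+siZBED2-2. The siZBED2-1 and siFOXA1+siZBED2-1 libraries overlapped each other and lay just above the other 8, whose groups overlapped. No UPK2 difference from siControl was called, with 10 to 39 counts per library and standard errors of 0.74 to 0.76 on the log2 scale for the single siRNAs, so that a change of the size seen with siFOXA1 in RT112 was not detectable.

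The transcription factors of urothelial differentiation were read beside the members. PPARG with its partner RXRA, GATA3 and FOXA1 itself belong to the luminal programme, and KLF5, ELF3, GRHL3, KLF4 and IRF1 are further factors of the differentiating epithelium. Of these 9 genes, 8 were tested in RT112, and siFOXA1 lowered 5, FOXA1 itself (-2.36, SE 0.38, adjusted p = 5.68e-05) among them, and raised 1, beside 11.9% of all genes called lower and 11.3% higher. KLF5 was 357 and 354 CPM with siControl and 145 and 136 CPM with siFOXA1 (-1.34, SE 0.13, adjusted p = 7.51e-08). GATA3 went from 492 and 518 CPM to 270 and 276 CPM (-0.89, SE 0.14, adjusted p = 3.03e-05) and PPARG from 93.2 and 104 CPM to 49.9 and 42.1 CPM (-1.1, SE 0.2, adjusted p = 0.000171). For each of these genes the siFOXA1 libraries lay below both siControl libraries. With siZBED2-1, 1 of the 8 was called, beside 4.45% of all genes called lower and 4.35% higher. It was RXRA, named after its values were seen, which went from 264 and 272 CPM to 120 and 132 CPM (-1.09, SE 0.16, adjusted p = 3.69e-05) while the uroplakin partners UPK1A and UPK2 rose.

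Of 7 genes taken as PPARG targets, 3 were tested in RT112. With siFOXA1, 1 was called lower and 2 higher, beside 11.9% of all genes called lower and 11.3% higher. FABP4, a fatty acid carrier, fell from 926 and 1058 CPM to 195 and 117 CPM with siFOXA1 (-2.67, SE 0.18, adjusted p = 5.53e-11), whereas CPT1A, which imports fatty acids into mitochondria, rose (1.27, SE 0.24, adjusted p = 0.000341). With siZBED2-1, 1 of the 3 was called lower and 1 higher, beside 4.45% of all genes called lower and 4.35% higher. The lower one was FABP4, at 434 and 460 CPM (-1.15, SE 0.17, adjusted p = 4.66e-05), under the treatment with which KRT4 rose. FABP4 remained at 1015 and 976 CPM with siZBED2-2.

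A list of genes tied to the trafficking of uroplakin vesicles was read beside their cargo. Of 9 (MAL, MAL2, RAB27B, SYTL2, RAB11A, RAB8A, MYO5B, VPS33A and VAMP8), all tested in RT112, siFOXA1 raised 5 and lowered 1, beside 11.3% of all genes called higher and 11.9% lower. The 4 with the smallest p were RAB11A of the recycling endosome (0.73, SE 0.16, adjusted p = 0.00142), the raft protein gene MAL2 (0.54, SE 0.14, adjusted p = 0.00445), VPS33A of the tethering machinery (1.26, SE 0.33, adjusted p = 0.00687) and the vesicle SNARE gene VAMP8 (0.55, SE 0.16, adjusted p = 0.0157). Without the second siFOXA1 library none of these 4 was called, with log2 fold changes of 0.49 for RAB11A, 0.45 for MAL2, 0.65 for VPS33A and 0.48 for VAMP8, and without the first siControl library MAL2 (0.47), VPS33A (1.19) and VAMP8 (0.33) were not. On the TPM scale, where the median gene shifted by -0.26, limma called none of the 4. With siZBED2-1, 3 of the 9 were called, all higher, beside 4.35% of all genes, and they are named after their values were seen. RAB27B, the small GTPase of uroplakin vesicles, rose from 21.5 and 26.4 CPM to 64.6 and 67.9 CPM (1.46, SE 0.36, adjusted p = 0.00892), though not called without any 1 of the 4 libraries (adjusted p = 0.0538 to 0.109). Its effector SYTL2 rose from 42.6 and 41.5 CPM to 94 and 88.9 CPM (1.12, SE 0.25, adjusted p = 0.00411, and 0.059 without the second siControl library), and MAL2 by 0.73 (SE 0.14, adjusted p = 0.000807).

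**Figure D4:**
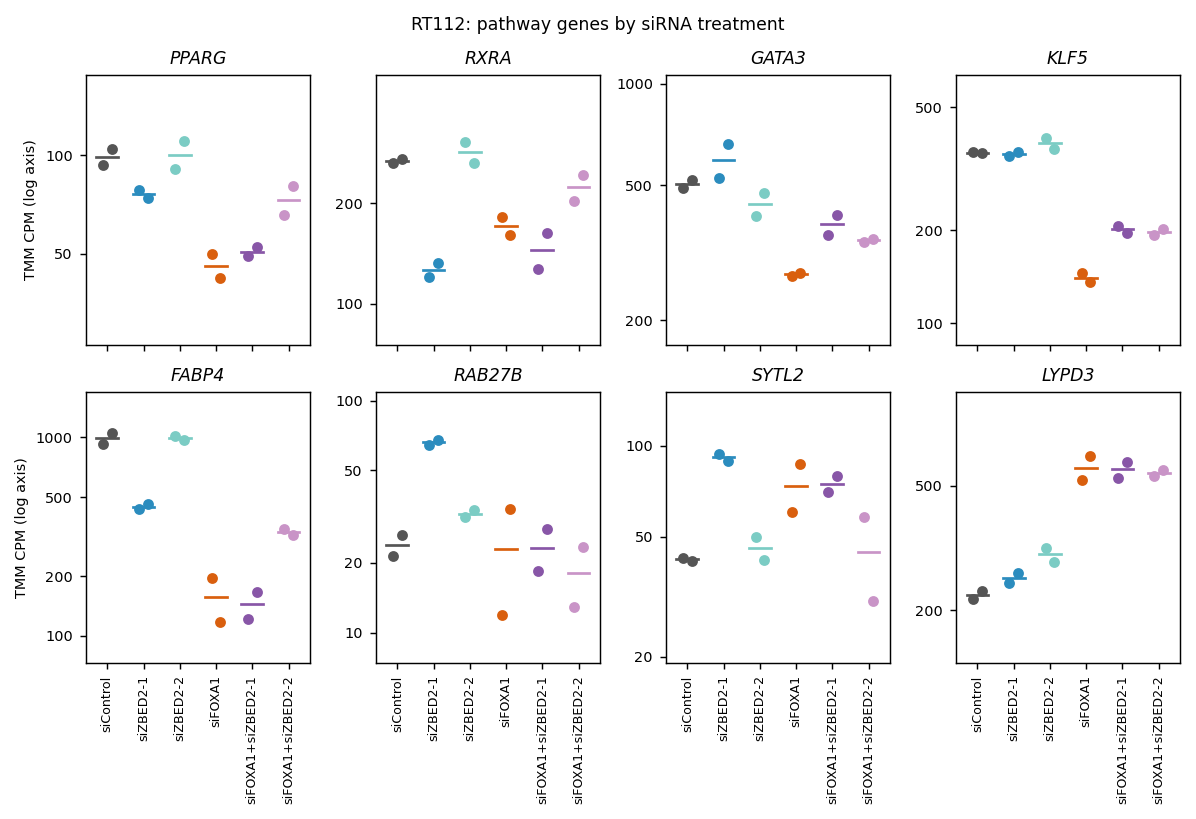
TMM CPM (log axis) of 8 genes of differentiation and vesicle transport in the 12 RT112 libraries by siRNA treatment, with 1 point per library and a bar at each group mean (n = 2). KLF5, GATA3, PPARG and FABP4 are lower with siFOXA1 than with siControl, LYPD3 is higher, and RAB27B is highest with siZBED2-1.

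Keratins of the simple epithelial type were also lower. Of 4, siFOXA1 lowered KRT7 (-0.74, SE 0.12, adjusted p = 6.8e-05), KRT18 (-0.74, SE 0.14, adjusted p = 0.000474) and KRT19 (-0.43, SE 0.11, adjusted p = 0.007) in RT112 and KRT8 was not called. Of all genes, 11.9% were called lower. KRT19 lost its call without the second siControl library (-0.4, adjusted p = 0.0592) or the second siFOXA1 library (-0.32, adjusted p = 0.144). Among 7 relatives of the members by family, 2 of the 5 tested were called, beside 23.3% of all genes called in either direction. Both were of the Ly6 family to which PSCA belongs. LY6D fell from 296 and 380 CPM to 157 and 133 CPM (-1.22, SE 0.18, adjusted p = 2.07e-05), and LYPD3 rose from 217 and 231 CPM to 521 and 624 CPM (1.35, SE 0.13, adjusted p = 6.51e-08). Of 12 basal-layer genes, 9 were tested and siFOXA1 lowered 2, TP63 (-1.89, SE 0.48, adjusted p = 0.0051) and ITGA6 (-0.47, SE 0.15, adjusted p = 0.0271), and raised CD44 (0.61, SE 0.16, adjusted p = 0.00624), with a median log2 fold change of -0.45 over the 9. These 3 calls of 9 stand beside 23.3% of all genes called in either direction. TP63 was not called without the second siControl (-1.19, adjusted p = 0.182) or second siFOXA1 library (-1.58, adjusted p = 0.0768), ITGA6 not without the first siControl (-0.29, adjusted p = 0.324), first siFOXA1 (-0.52, adjusted p = 0.0565) or second siFOXA1 library (-0.41, adjusted p = 0.17), and CD44 not without the second siControl library (0.47, adjusted p = 0.121).

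In SCaBER, siFOXA1 lowered 2 of the 8 tested differentiation factors, beside 9.12% of all genes called lower and 8.71% higher. They were KLF5 (-1.28, SE 0.17, adjusted p = 1.2e-06) and ELF3 (-0.87, SE 0.21, adjusted p = 0.00272), of which ELF3 was not called without the second siControl (-0.69, adjusted p = 0.0735) or second siFOXA1 library (-0.64, adjusted p = 0.0876). It raised LYPD3 (1.5, SE 0.15, adjusted p = 4.21e-09), lowered KRT18 (-0.74, SE 0.11, adjusted p = 5.49e-06), and among 12 basal-layer genes raised KRT17 (1.48, SE 0.1, adjusted p = 1.19e-12) and KRT6B (1.98, SE 0.19, adjusted p = 1.03e-09) and lowered KRT5 (-0.46, SE 0.11, adjusted p = 0.00193). Of the vesicle transport genes it raised 1 of 9, VAMP8, from 160 and 161 CPM to 260 and 302 CPM (0.81, SE 0.14, adjusted p = 6.93e-05), and of the PPARG targets 1 of 4 tested, ANGPTL4, from 1.13 and 3 CPM to 16.9 and 20.4 CPM (3.17, SE 0.56, adjusted p = 7.82e-05). A further Ly6 relative, LY6E, had 11 and 0 counts with siControl and 74 and 32 with siFOXA1 and was called higher (3.38, SE 0.85, adjusted p = 0.00415), though not without the second siControl (2.42, adjusted p = 0.0783) or first siFOXA1 library (2.76, adjusted p = 0.067). The fall of KRT13, KLF5 and KRT18 and the rise of LYPD3 and VAMP8 were thus called in both lines, though the VAMP8 call in RT112 depended on single libraries.

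Of 8 markers of other cell types (COL1A1, COL1A2, DCN, LUM, PTPRC, CD3E, PECAM1 and VWF), 3 were tested in RT112, and none of PTPRC, COL1A2 and CD3E exceeded 13 counts in a library. COL1A1 was 5.05 and 4.4 CPM with siControl and 39.8 and 42.1 CPM with siFOXA1, and LUM was 112 and 157 CPM and 67.6 and 69.2 CPM. PECAM1 had 26 and 10 counts with siControl and none with siFOXA1. The 3 tested markers were all called, COL1A1 higher and LUM and PECAM1 lower, beside 11.3% of all genes called higher and 11.9% lower. The summed level of the 8 markers was 123 to 192 CPM in the 6 RT112 libraries without and 109 to 139 CPM in the 6 with the FOXA1 siRNA. Their part in the results was not tested.

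The genes whose levels followed each member most closely over the 12 RT112 libraries are given as a description, since libraries of 1 treatment share their siRNA. KRT4 was closest to ACOXL (Pearson r = 0.969), PSCA to MSL1 (0.983), KRT13 to YBX1 (0.985), UPK1B to RNPEPL1 (0.954), UPK2 to GDPD3 (0.925), UPK1A to SEMA3C (0.925) and UPK3B to HIF1A (0.949). Among the members, PSCA followed KRT13 (0.89) and UPK1B (0.856), and KRT4 followed UPK1B (0.85), PSCA (0.846) and UPK1A (0.845). UPK3B had r of 0.0247 to KRT4, 0.0871 to UPK2, 0.173 to PSCA and -0.144 to UPK1A. Its r was higher to UPK1B (0.354) and KRT13 (0.529).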

How the data were processed

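Per the labels and the pipeline settings, the authors used TrimGalore 0.6.2 for trimming (bases of quality under 20 and reads under 10 bases were dropped) and STAR 2.6.1a for alignment to hg38 and counting over GENCODE 29 genes. They deposited raw counts and TPM values per gene and library. The counts were fitted by line (12 libraries) and jointly (24 libraries) with edgeR 4.0.16 (R 4.3.3), using TMM scaling, filterByExpr by group (minimum count 10, minimum total 15) and the quasi-likelihood F-test with Benjamini-Hochberg adjustment. Alternatives were RLE size factors, no low-count filter, a replicate block, DESeq2 1.42.0, limma 3.58.1 on log2(TPM + 1), and leaving out each library, and the scripts were tested on simulated data. Replicate numbers stand for experiment batches in the labels, which pairs libraries across treatments, although deviations of same-numbered libraries correlated weakly (mean 0.0252 in RT112, 0.0162 in SCaBER). Members and lists were chosen with earlier results of these data known. Of the lists, genes are named by the smallest p under siFOXA1, up to 4 per list and line. Replicates differed beyond sampling noise, so none was merged. Sequences and positions are from RefSeq (GRCh38.p14). A result for 1 gene of the lists is not reported here.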

Additional observations from a re-analysis of the deposited data

Results flagged for a closer look

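By edgeR's interaction term, the FOXA1 siRNA effect on KRT13 in RT112 differed with and without a ZBED2 siRNA, by 0.82 on the log2 scale (SE 0.19, adjusted p = 0.0361). It was not called by DESeq2 (adjusted p = 0.0672), by limma on TPM (adjusted p = 0.51) or in 8 of the 12 fits that left out 1 library, down to 0.51 (adjusted p = 0.383) without the second siFOXA1 library.

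The siZBED2-1 response of PSCA differed between RT112 and SCaBER by 3.45 (SE 0.66, adjusted p = 0.00449), in a comparison chosen after the data were seen. In SCaBER it rests on 6 and 0 counts against 19 and 17 and was not called within that line (adjusted p = 0.522), and without the second SCaBER siZBED2-1 library the difference between the lines was 2.43 (adjusted p = 0.0826).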

How the results depend on the processing

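The counts of members called changed most on the TPM scale, where limma called 2 members for siZBED2-1, 0 for the mean of the ZBED2 siRNAs, 0 for the double knock-downs against siFOXA1, 0 for the interaction, 2 between the ZBED2 siRNAs, and 1 and 0 for siFOXA1+siZBED2-1 and siFOXA1+siZBED2-2 against siFOXA1 in RT112. In SCaBER it called 2 for siFOXA1, 1 for the mean of the ZBED2 siRNAs and 2 for the FOXA1 siRNA over all backgrounds, and 1 for the line difference in the siFOXA1 response. On that scale the median gene shifted by -0.26 for siFOXA1 in RT112, and 391 genes were called higher and 1748 lower against 1499 and 1585 by edgeR. DESeq2 called 1 member for siZBED2-2, 0 for the interaction in RT112 and 1 for the line difference in the siFOXA1 response, and without the low-count filter 1 was called for siZBED2-2 and 2 for that line difference. RLE size factors moved no count of members by over 1.5 times. The cause was not tested.

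Leaving out 1 library at a time, edgeR called in RT112 5 to 5 members for siFOXA1, 3 to 5 for siZBED2-1, 0 to 0 for siZBED2-2, 0 to 3 for the mean of the ZBED2 siRNAs, 3 to 3 for the double knock-downs against siControl and 2 to 4 against siFOXA1, 5 to 6 for the FOXA1 siRNA over all backgrounds, 0 to 2 for the interaction, 3 to 4 between the ZBED2 siRNAs, 2 to 4 for siFOXA1+siZBED2-1 and 1 to 4 for siFOXA1+siZBED2-2 against siFOXA1, and 4 to 5 and 4 to 4 for the FOXA1 siRNA against siZBED2-1 and siZBED2-2. In SCaBER it called 1 to 1 for siFOXA1, 0 to 1 for the double knock-downs against siControl and 1 to 2 for the FOXA1 siRNA over all backgrounds. Between the lines it called 7 to 7 in siControl, 0 to 0 for the siFOXA1 response and 0 to 1 for the siZBED2-1 response. Where a left-out library leaves a group with 1, that library is assumed to vary like the other groups.

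With the replicate number as a block, the members called in RT112 numbered 7 for siFOXA1, 4 for the mean of the ZBED2 siRNAs, 6 for the double knock-downs against siFOXA1, 5 for siFOXA1+siZBED2-1 against siFOXA1 and 5 for siFOXA1+siZBED2-2 against siZBED2-2 (UPK2 added, 0.45, adjusted p = 0.0436), and the count was unchanged in each other comparison. Over all genes the block gave 44 calls in place of 22 for siZBED2-2, 486 in place of 314 for the mean of the ZBED2 siRNAs, 444 in place of 260 for the double knock-downs against siFOXA1 and 212 in place of 81 for the interaction in RT112. Over all genes limma on TPM gave 345 calls in place of 1167 for siZBED2-1, and DESeq2 66 in place of 22 for siZBED2-2. Depth limits UPK1A, UPK3B, SNX31, UPK3A and KRT20 in RT112 and all members in SCaBER.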
